A study of Mus musculus with 23 samples.

Results

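The BCL2 family decides at the mitochondrion whether a cell survives. Guardian proteins such as BCL2, BCL-XL and MCL1 hold the pore-forming proteins BAK and its relatives inactive, and a set of small BH3-only proteins, among them BID, BAD, BIM and NOXA, blocks the guardians or activates the pore formers. Lymphocytes, which fill most of the spleen, are among the cells that die most readily after ionizing radiation, and p53, which radiation activates, is known to switch on the NOXA gene Pmaip1. The mouse spleen also makes red cells, and BCL-XL is known to keep maturing erythroid cells alive.

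Of the genes annotated on the array, 9 members were described: the guardians Bcl2, Bcl2l1 (BCL-XL), Mcl1 and Bcl2l2 (BCL-w), the pore former Bak1, and the BH3-only genes Bid, Bad, Bcl2l11 (BIM) and Pmaip1 (NOXA). Members were taken by their platform symbol, required a detection p under 0.05 on at least 3 of 23 arrays, and were represented by the brightest such probe. All 9 members passed, out of 17176 features tested. Pmaip1 was detected on 6 arrays and the other 8 on all 23. The members had 11 probes, of which Bcl2 had 2 that passed and Bcl2l1 had a second probe that was detected on 0 arrays.

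RNA came from spleens of male DBA/2J and C57BL/6J mice aged 10 weeks, 24 h after whole-body gamma radiation or from control mice. In each strain there were control pools, pools after 10 cGy (a 137Cs source at 9 cGy/h) and pools after 1 Gy (a 60Co source at 6 Gy/min), so dose, dose rate and source cannot be told apart. Each array held equal amounts of RNA from 2 mice of 1 strain, with 4 pools a group except DBA/2J 10 cGy, which had 3. The source names carry the word control for every group, so groups were taken from the treatment label instead. Shared cages or irradiation runs are not recorded in the labels. P-values measure the spread between these pools.

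Between 14233 and 16002 probes were detected per array, out of 34492. Of the marker lists, 13 of 14 B cell genes, 11 of 14 T cell genes, 9 of 13 macrophage genes and 16 of 20 erythroid genes passed the detection filter. Some pools stood apart. DBA/2J 10 cGy pools 1 and 3 had median correlations of 0.932 and 0.933 with the other arrays, against 0.956 to 0.973 for the other 21 arrays, and results of that group are given with and without them. Spans of group means, and correlations over all pools unless stated, are given only with them. Every comparison with DBA/2J 10 cGy uses the same 3 pools. In C57BL/6J, 1 Gy pool 1 and control pool 1 carried pancreas transcripts, with a mean of 14.36 and 14.16 log2 units over the pancreas list, against group medians of 7.3 in 1 Gy pools and 6.66 in control pools. Without these 2 arrays the C57BL/6J calls after 1 Gy held, with Bcl2l1 at -1.53 ± 0.30 and Pmaip1 at 0.45 ± 0.13 (adjusted p 0.00487 and 0.0454). Values below are normalized log2 intensities, and differences are log2 differences ± SE from limma with Benjamini-Hochberg adjustment over all 17176 features, called at an adjusted p under 0.05. Intensities of different probes are not on a common scale, so no gene's level is set against another's.

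The promoters of the 2 members with the widest changes among the guardians are printed as a description, and no motif was tested against expression. Windows of 8 of the 9 members, with 12 start sites, were taken from RefSeq (GRCm38.p6), and no Pmaip1 window was examined. Each sequence is the 250 bases before the annotated start, written 5′ to 3′ on the gene's strand: Bcl2l1 at chr2:152828490-152828739 (minus strand), which is 1 of its 3 annotated starts, and Bcl2 at chr1:106714291-106714540 (minus strand). Capitals mark GATA words (GATA with A or T before it and A or G after it) and the GC box GGGCGG, either on the printed or on the other strand.
Bcl2l1: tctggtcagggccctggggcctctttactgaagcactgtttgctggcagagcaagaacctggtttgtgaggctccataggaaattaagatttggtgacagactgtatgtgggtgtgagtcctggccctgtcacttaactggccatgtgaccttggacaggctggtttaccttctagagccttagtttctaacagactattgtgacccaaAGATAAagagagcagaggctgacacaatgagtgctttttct
Bcl2: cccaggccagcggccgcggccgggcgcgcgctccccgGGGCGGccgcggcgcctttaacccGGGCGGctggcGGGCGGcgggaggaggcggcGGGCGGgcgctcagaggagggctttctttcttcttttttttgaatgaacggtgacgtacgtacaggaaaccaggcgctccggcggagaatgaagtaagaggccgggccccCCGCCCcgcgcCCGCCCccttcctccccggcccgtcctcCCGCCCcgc
The Bcl2l1 window held 1 GATA word, beginning 41 bases before the start, and no GC box, whereas the Bcl2 window held 7 GC boxes and no GATA word. Neither other Bcl2l1 start had a match to either motif, so the printed start is the only one of them with a GATA word. A GATA word stood in 2 of the 12 member windows, the other being that of Bid, and in 26.5% of all 32851 windows of that length. A GC box stood in 7 of the 12 member windows and in 32.7% of all windows. The motif TTCNNNGAA and the p53 half-site were in none of the 12, against 7.02% and 7.13% of all windows. These 12 do not include Pmaip1, whose window was not searched, so the counts say nothing of a p53 half-site there. These are matches of letters in the reference strain's sequence, and no binding was measured.

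**Figure D1:**
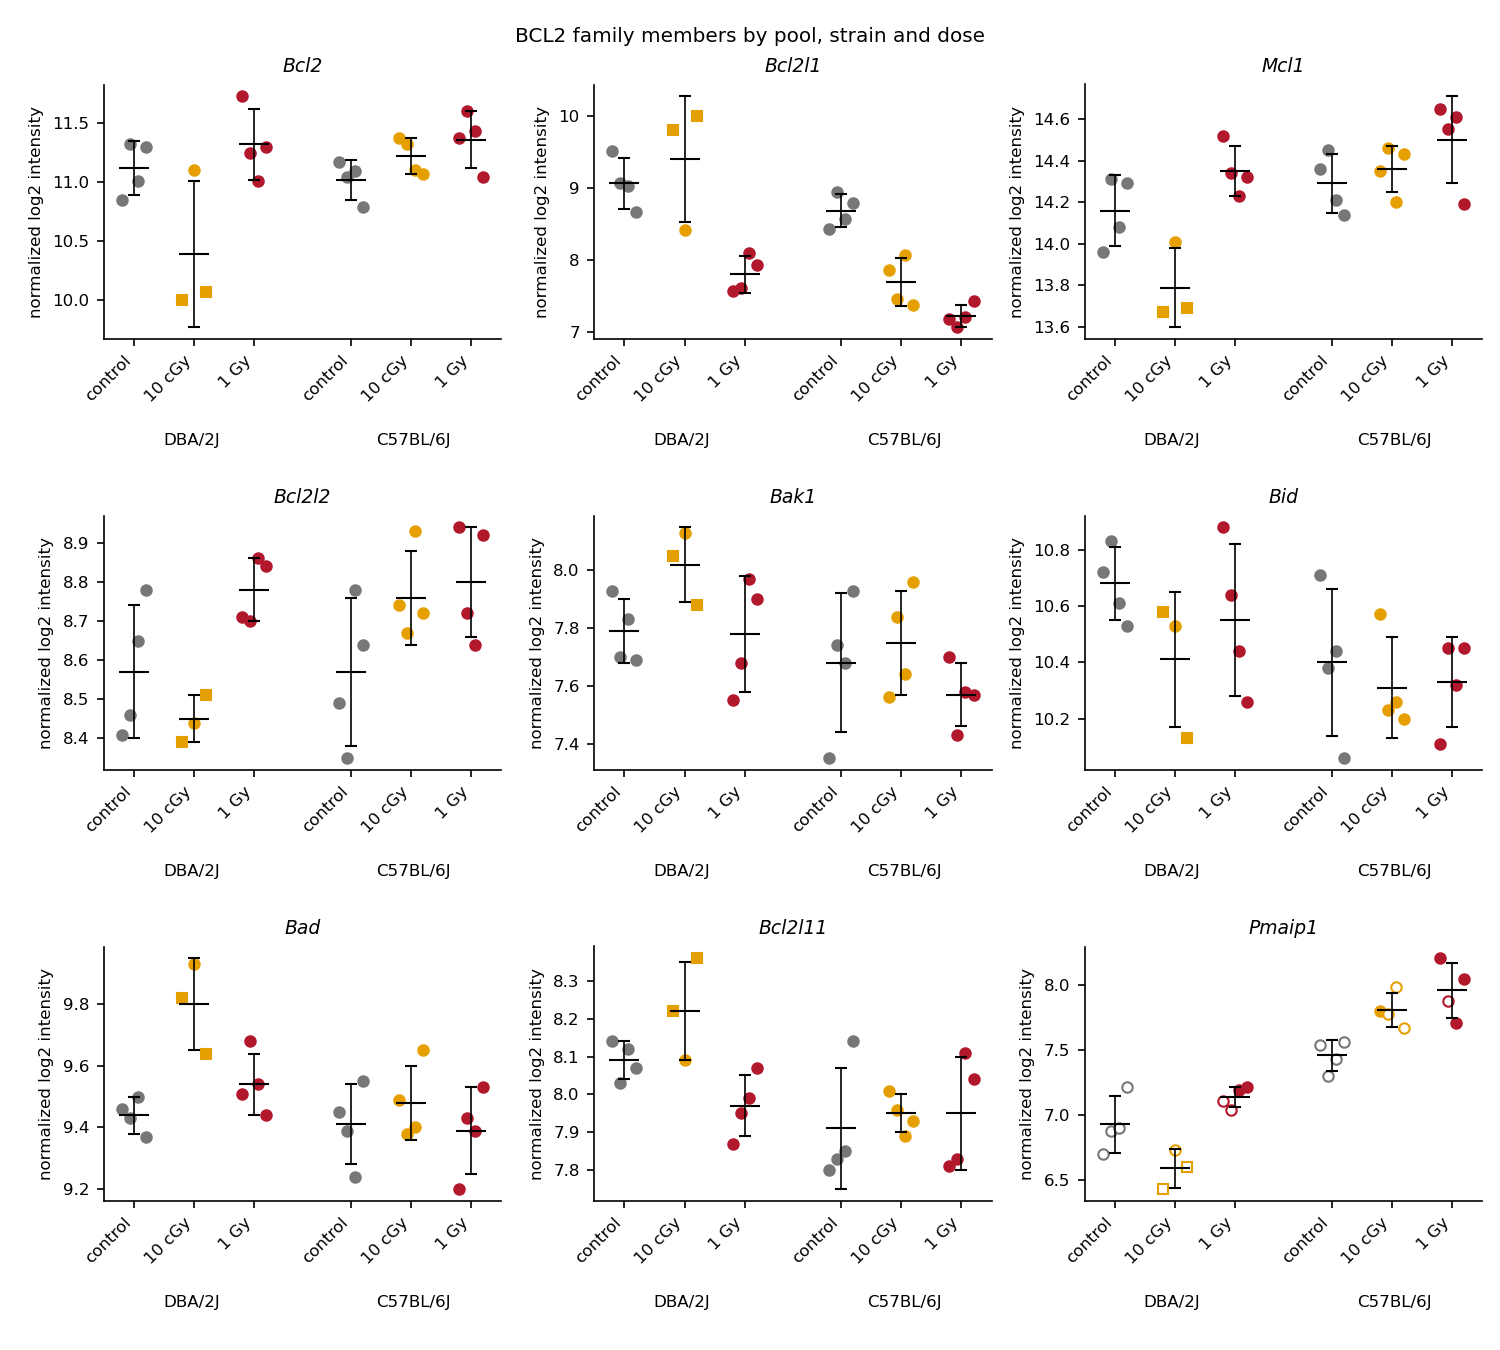
Normalized log2 intensity (y axis, scaled per gene) of each member in every pool, by strain and dose (x axis); lines and bars are the mean ± SD of 3 or 4 pools. Open symbols are arrays on which the probe was not detected, and squares are DBA/2J 10 cGy pools 1 and 3. Bcl2l1 was lower in all 1 Gy pools than in any control pool of its strain. In that comparison 12.6% of all features did not overlap in DBA/2J and 17% in C57BL/6J. Most Pmaip1 points are open, with 0 of 4 arrays detected in either control group.

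Bcl2l1, the gene of BCL-XL, was the member that fell after 1 Gy in both strains. Its values in DBA/2J control pools were 9.51, 9.06, 9.02 and 8.66, in 10 cGy pools 9.80, 8.41 and 10.00, and in 1 Gy pools 7.57, 7.61, 8.10 and 7.93. In C57BL/6J control pools they were 8.43, 8.94, 8.56 and 8.79, in 10 cGy pools 7.86, 7.46, 8.07 and 7.38, and in 1 Gy pools 7.18, 7.07, 7.21 and 7.43. All 1 Gy pools of either strain lay below all control pools of that strain, as did all C57BL/6J 10 cGy pools. The DBA/2J 10 cGy pools lay on both sides of their controls. Of all features, 12.6% did not overlap with control at 1 Gy in DBA/2J, and 17% at 1 Gy and 12.1% at 10 cGy in C57BL/6J.

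After 1 Gy Bcl2l1 changed by -1.26 ± 0.25 in DBA/2J (2.4-fold lower, adjusted p = 0.0153) and by -1.46 ± 0.25 in C57BL/6J (2.75-fold lower, adjusted p = 0.000745). The difference between these 2 effects, DBA/2J minus C57BL/6J, was 0.20 ± 0.36, with a 95% interval of -0.55 to 0.95. In C57BL/6J 1 Gy pools the Bcl2l1 signals before correction were 155.7 to 186.4, against array medians of 103.2 to 128.7. Values there were detected but not far above background, so a larger fall in C57BL/6J could be hidden. After 10 cGy Bcl2l1 fell by 0.99 ± 0.25 in C57BL/6J (1.98-fold lower, adjusted p = 0.0355), and in DBA/2J the difference was 0.34 ± 0.28 (adjusted p = 0.428). That DBA/2J value depended on the pools: it was -0.65 ± 0.28 without pools 1 and 3 (adjusted p = 0.329), and without pool 2 it was 0.84 and called (adjusted p = 0.00501). In C57BL/6J, 1 Gy and 10 cGy pools differed by -0.47 ± 0.25, which did not pass (adjusted p = 0.999).

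The C57BL/6J 1 Gy call held with each of the 8 pools left out, with adjusted p between 0.00133 and 0.00451. The C57BL/6J 10 cGy call was lost without control pool 2 or 4, or without 10 cGy pool 1, 2 or 4, with adjusted p up to 0.123. Without the 2 arrays that carried pancreas transcripts it was -1.07 ± 0.28 (adjusted p = 0.0507). The DBA/2J 1 Gy call was lost without control pool 1 or without 1 Gy pool 1 or 2, with adjusted p up to 0.0841. With background inferred from the detection p, Bcl2l1 was not called after 1 Gy in DBA/2J (-0.50 ± 0.16, adjusted p = 0.165) or C57BL/6J (-0.39 ± 0.16, adjusted p = 0.182), nor after 10 cGy in C57BL/6J (-0.31 ± 0.16, adjusted p = 0.405). The C57BL/6J 10 cGy call was also lost with the authors' deposited values (-0.48 ± 0.16, adjusted p = 0.125) and with no filter on detection (-0.99 ± 0.25, adjusted p = 0.0551).

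Erythroid markers moved with Bcl2l1. Among 16 measured erythroid markers, 4 fell after 1 Gy in DBA/2J with a list median of -1.52, and 16 fell in C57BL/6J with a list median of -4.03. After 10 cGy, 0 were called in DBA/2J (2 at an unadjusted p under 0.05, median 0.49) and 15 fell in C57BL/6J (median -2.31). The mean of the list over markers ranged in DBA/2J from 11.71 to 12.5 in control pools, 11.32 to 13.07 in 10 cGy pools and 9.94 to 10.93 in 1 Gy pools. In C57BL/6J it ranged from 11.05 to 12.02 in control pools, 8.71 to 10.52 in 10 cGy pools and 7.72 to 8.19 in 1 Gy pools. No erythroid marker was undetected on all C57BL/6J 1 Gy arrays, and 9 of 16 were detected on all 4 of them. Of 8 megakaryocyte markers, of the cells that make platelets, 0 were called after 1 Gy in DBA/2J, where all 8 differences were positive (0.19 to 0.64, median 0.38, 2 at an unadjusted p under 0.05), and 7 fell in C57BL/6J (median -1.1). After 10 cGy 6 of the 8 rose in DBA/2J (median 1.15) and 7 fell in C57BL/6J (median -1.27). Of 13 granulocyte markers, 0 were called after 1 Gy in DBA/2J (0 at an unadjusted p under 0.05, median 0.41) and 10 fell in C57BL/6J (median -3.47). After 10 cGy 13 of 13 rose in DBA/2J (median 3.36) and 11 fell in C57BL/6J (median -3.53). The part of these cell types in the Bcl2l1 differences was not tested. In RNA from whole spleen, fewer cells of a type and less RNA per cell cannot be told apart.

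Over the 23 pools Bcl2l1 and the erythroid mean had a Pearson correlation of 0.94 and a Spearman correlation of 0.99, given as a description since pools of a group share their treatment. Leaving out the 2 pools farthest from the median of the marker mean, C57BL/6J 1 Gy pools 1 and 2, left it at 0.94. Within DBA/2J it was 0.99 over 11 pools and within C57BL/6J 0.99 over 12 pools, and the correlation of deviations from the group means was 0.90. Other lists followed Bcl2l1 over the 23 pools as well. Its correlation was -0.90 with the macrophage mean, -0.87 with the T cell mean and -0.75 with the B cell mean. With the p53 target mean it was -0.80 and with the granulocyte mean 0.69. Of the 11347 other named genes, the closest to Bcl2l1 over 23 pools were Stradb and Ackr1 (0.99 each) and Bsdc1 (0.98), with correlations of deviations of 0.95, 0.94 and 0.94.

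**Figure D2:**
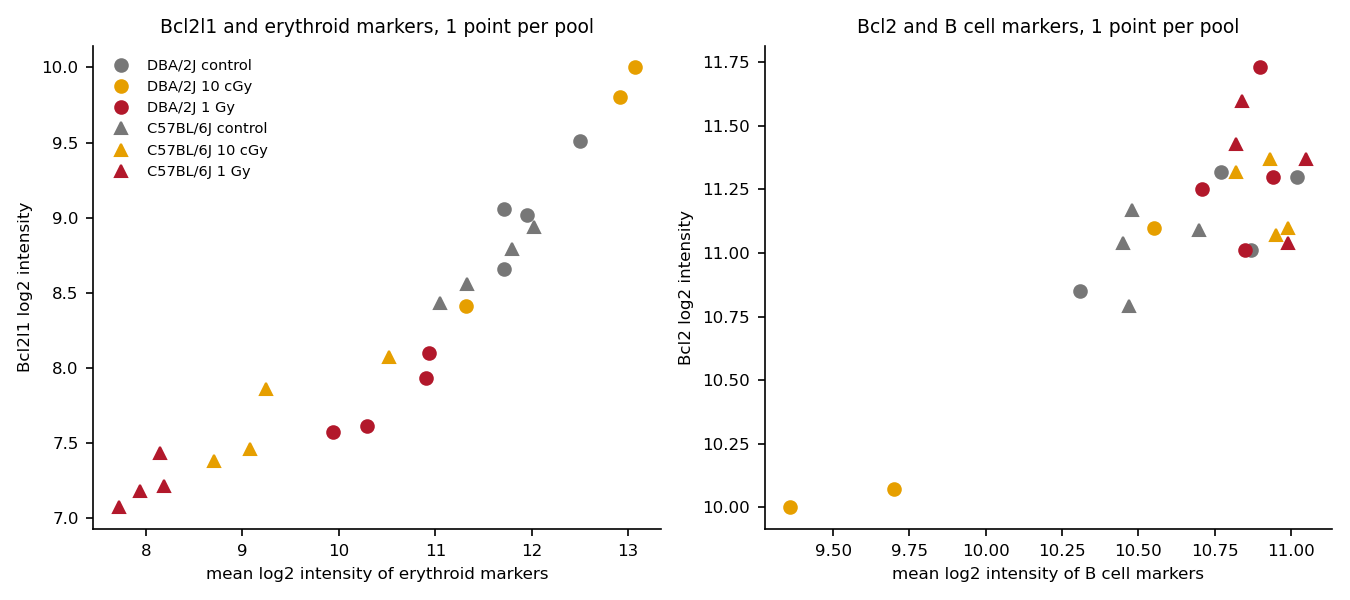
Left, Bcl2l1 log2 intensity (y axis) against the mean log2 intensity of 16 erythroid markers (x axis); right, Bcl2 against the mean of 13 B cell markers; 1 point per pool, circles for DBA/2J and triangles for C57BL/6J. Bcl2l1 followed the erythroid mean through all 6 groups (r = 0.94), while the relation of Bcl2 to B cell markers (r = 0.86) was 0.50 without the 2 DBA/2J 10 cGy pools at the lower left.

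The first comparison asked what 1 Gy changed in each strain. In C57BL/6J 2 of 9 members were called, Bcl2l1 lower and Pmaip1 higher, where 8.08% of all features were called. In DBA/2J 1 of 9 was called, Bcl2l1, where 1.66% of all features were. The median change of the 9 members was 0.10 in DBA/2J and 0.04 in C57BL/6J, against 0.018 and 0.037 over all features. The strain difference of the 1 Gy effect was called for 0 of 9 members by limma (0 also at an unadjusted p under 0.05), where 0.373% of all features were called.

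Pmaip1, the NOXA gene, was called higher after 1 Gy in C57BL/6J. Its values in C57BL/6J control pools were 7.54, 7.30, 7.43 and 7.56, in 10 cGy pools 7.80, 7.78, 7.99 and 7.67, and in 1 Gy pools 8.21, 7.88, 7.71 and 8.05. The irradiated pools of both doses lay above all control pools, where 17% of all features did not overlap at 1 Gy and 12.1% at 10 cGy. The probe was detected on 3 of 4 arrays in 1 Gy pools and on 0 of 4 in control pools, so the increase is a bound: at least 1.42-fold (means 7.96 and 7.46, adjusted p = 0.00718), and the call held with each of the 8 pools left out (adjusted p up to 0.0389). After 10 cGy the difference was 0.35 ± 0.11 and did not pass (adjusted p = 0.102).

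Pmaip1 in DBA/2J was 6.70, 6.88, 6.90 and 7.22 in control pools, 6.43, 6.73 and 6.60 in 10 cGy pools, and 7.11, 7.04, 7.19 and 7.22 in 1 Gy pools. After 1 Gy the difference from control was 0.21 ± 0.11 (adjusted p = 0.44). The groups overlapped, with control pool 4 at 7.22 above 1 Gy pools 1, 2 and 3 and level with 1 Gy pool 4. The strain difference of the 1 Gy effect was -0.29 ± 0.16 with a 95% interval of -0.63 to 0.05, so an equal effect in both strains lay within it. Both control groups had 0 of 4 arrays detected, so that difference rests in part on values not well above background. Detection did not follow brightness for this probe: C57BL/6J 10 cGy pool 3 had a signal of 323.2 and was not detected, while DBA/2J 1 Gy pool 3 had 163.4 and was. On each array 3.49% to 4.84% of probes with a signal above 1000 were likewise not detected, and the labels do not say how the authors computed the detection p.

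The guardians Bcl2, Mcl1 and Bcl2l2 had small positive differences after 1 Gy in both strains, and none passed the test. Bcl2, which protects resting lymphocytes, differed from control by 0.20 ± 0.20 in DBA/2J and by 0.34 ± 0.20 in C57BL/6J (adjusted p 0.744 and 0.33). Its second probe gave 0.18 ± 0.16 and 0.44 ± 0.16 (adjusted p 0.702 and 0.101). On that probe the C57BL/6J 1 Gy pools (8.89 to 9.15) lay above the control pools (8.42 to 8.80), where 17% of all features did not overlap. Mcl1, whose short-lived protein is needed by many blood cells, differed by 0.19 ± 0.11 in DBA/2J and by 0.21 ± 0.11 in C57BL/6J (adjusted p 0.504 and 0.296). Bcl2l2 differed by 0.20 ± 0.10 and 0.24 ± 0.10 (adjusted p 0.387 and 0.166), and its 1 Gy pools overlapped the control pools in both strains.

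Bak1, the pore former, differed after 1 Gy by -0.01 ± 0.12 in DBA/2J and by -0.11 ± 0.12 in C57BL/6J. Bid, which caspase-8 cleaves to link death receptors to mitochondria, differed by -0.12 ± 0.14 and -0.07 ± 0.14. The 95% intervals for these genes lay within -0.42 and 0.24. Bad, which binds guardians unless survival kinases phosphorylate it, differed by 0.10 ± 0.09 and -0.02 ± 0.09. Bcl2l11, a main killer of lymphocytes, differed by -0.12 ± 0.09 and 0.04 ± 0.09.

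**Figure D3:**
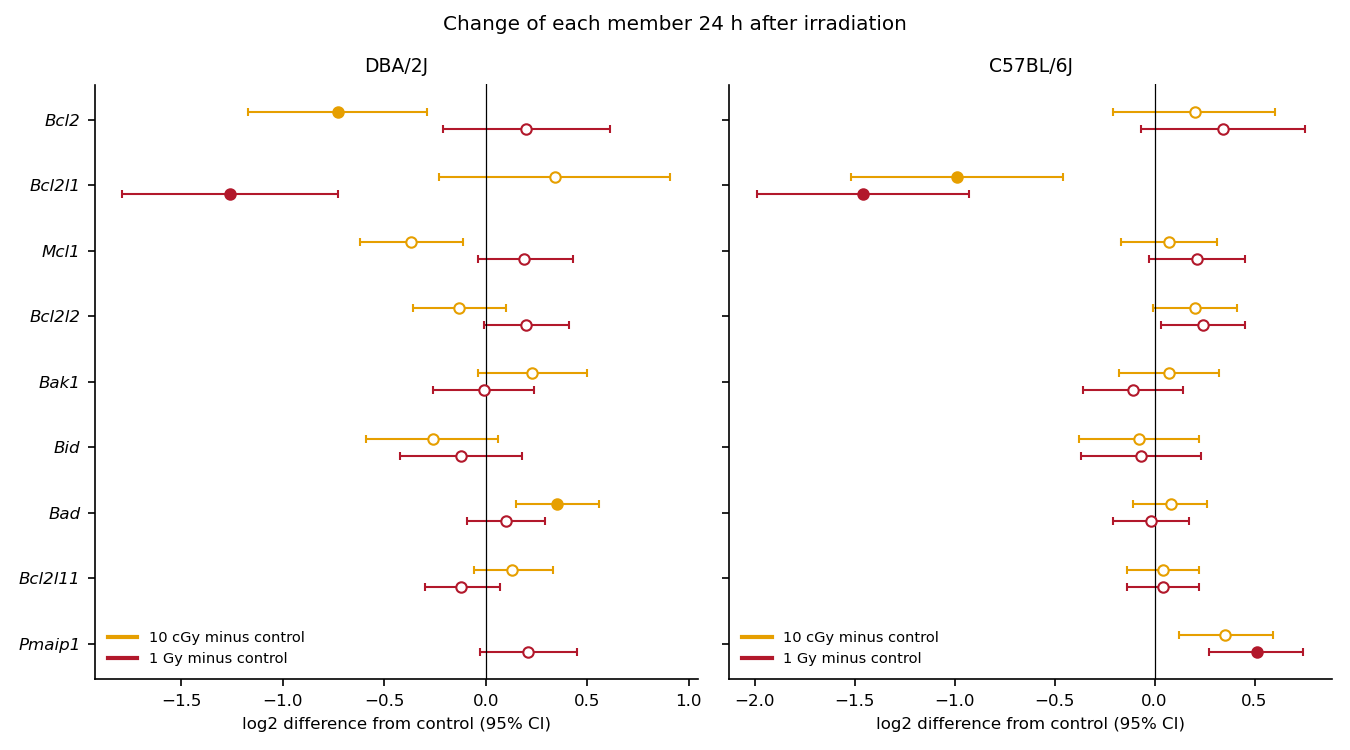
Log2 difference of each member from the control pools of its strain (x axis) with its 95% confidence interval, for 10 cGy and 1 Gy (colours) in DBA/2J (left) and C57BL/6J (right); filled points were called at an adjusted p under 0.05. The called differences after 1 Gy were Bcl2l1 in both strains (-1.26 and -1.46) and Pmaip1 in C57BL/6J (0.51); Bcl2 (-0.73) and Bad (0.35) after 10 cGy in DBA/2J were at -0.02 and 0.49 without pools 1 and 3, and neither was then called. Pmaip1 after 10 cGy in DBA/2J, detected in neither group, is left out.

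Mcl1 was 13.96, 14.31, 14.08 and 14.29 in DBA/2J control pools, 13.67, 14.01 and 13.69 in 10 cGy pools, and 14.52, 14.34, 14.23 and 14.32 in 1 Gy pools. In C57BL/6J it was 14.36, 14.45, 14.21 and 14.14 in control pools, 14.35, 14.46, 14.20 and 14.43 in 10 cGy pools, and 14.65, 14.55, 14.61 and 14.19 in 1 Gy pools. DBA/2J 10 cGy pools 1 and 3 were the lowest of the 23, and in C57BL/6J the 3 doses overlapped. Bcl2 in C57BL/6J was 11.17, 11.04, 11.09 and 10.79 in control pools, 11.37, 11.32, 11.10 and 11.07 in 10 cGy pools, and 11.37, 11.60, 11.43 and 11.04 in 1 Gy pools, so these groups overlapped as well.

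Bcl2l2 ran from 8.41 to 8.78 in DBA/2J control pools, 8.39 to 8.51 in 10 cGy pools and 8.70 to 8.86 in 1 Gy pools. Its 1 Gy pools lay above all 10 cGy pools there, where 31.7% of all features did not overlap. In C57BL/6J it ran from 8.35 to 8.78 in control pools, 8.67 to 8.93 in 10 cGy pools and 8.64 to 8.94 in 1 Gy pools, which overlapped. Bcl2l11 ran from 7.87 to 8.36 in all DBA/2J pools and from 7.80 to 8.14 in all C57BL/6J pools. Bak1 ran from 7.55 to 8.13 in DBA/2J and 7.35 to 7.96 in C57BL/6J, and Bid from 10.13 to 10.88 in DBA/2J and 10.06 to 10.71 in C57BL/6J. For Bak1 and Bid none of the 11 comparisons was called by limma, and the smallest unadjusted p was 0.0517 (Bak1, DBA/2J against C57BL/6J at 10 cGy).

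After 10 cGy in C57BL/6J, 1 of 9 members was called, Bcl2l1, where 3.23% of all features were called. The other 8 members differed from control by -0.08 to 0.35, with adjusted p from 0.102 to 0.863. Between 1 Gy and 10 cGy pools of C57BL/6J, 0 of 9 members were called (0 at an unadjusted p under 0.05), where 0.186% of all features were. The differences of the 9 members then ran from -0.47 for Bcl2l1 to 0.15 for Pmaip1. The 10 cGy and 1 Gy comparisons of a strain share their control pools, and each difference is given on its own.

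After 10 cGy in DBA/2J, 2 of 9 members were called, where 10.2% of all features were called: Bcl2 lower and Bad higher. Bcl2 was 10.85, 11.32, 11.01 and 11.30 in control pools, 10.00, 11.10 and 10.07 in 10 cGy pools, and 11.73, 11.25, 11.01 and 11.30 in 1 Gy pools. Pools 1 and 3 of the 10 cGy group were below all other DBA/2J pools, and pool 2 lay among the controls. The difference was -0.73 ± 0.21 (adjusted p = 0.0336), and -0.56 ± 0.17 (adjusted p = 0.0427) on the second probe. Without pools 1 and 3 it was -0.02 ± 0.23 (adjusted p = 0.987), and the call was also lost without control pool 2, 3 or 4.

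Bad was 9.46, 9.43, 9.50 and 9.37 in DBA/2J control pools, 9.82, 9.93 and 9.64 in 10 cGy pools, and 9.51, 9.68, 9.54 and 9.44 in 1 Gy pools. All 3 of the 10 cGy pools lay above all control pools, where 12.5% of all features did not overlap. The difference was 0.35 ± 0.10 (adjusted p = 0.0272). For pool 2 alone, without pools 1 and 3, the difference was 0.49 ± 0.14 (adjusted p = 0.0967). With arrays scaled to a common median it was 0.11 ± 0.13 and did not pass (adjusted p = 0.667), and the call was also lost without control pool 2 or 4 or 10 cGy pool 1.

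The 3 DBA/2J 10 cGy pools were unlike each other in the guardians. Set against the mean of the control pools, Bcl2l1 was 0.74 and 0.94 higher in pools 1 and 3 and lay at -0.65 in pool 2. Mcl1 lay at -0.48 and -0.47 in pools 1 and 3 and at -0.15 in pool 2. Fitted over the 3 pools, Mcl1 differed by -0.37 ± 0.12 and Bcl2l1 by 0.34 ± 0.28, and neither passed (adjusted p 0.0599 and 0.428). When the fit used only the 7 arrays of these groups, 0 of 9 members were called, and 17 of all 17176 features were. With pools 1 and 3 left out 0 of 9 were called, and 200 of all features were, against 1759 with them.

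B cell markers set pools 1 and 3 apart, while granulocyte markers were high in all 3 pools. Other lists were spread over these 3 pools as well. From lowest to highest the T cell mean was 9.07, 9.1 and 10.26 and the macrophage mean 11.56, 11.6 and 12.47. The B cell mean was 9.36, 10.55 and 9.7 in DBA/2J 10 cGy pools 1, 2 and 3 and ranged from 10.31 to 11.02 in DBA/2J control pools, and 10 of 13 B cell markers fell with a list median of -0.99. The granulocyte mean was 13.7, 13.05 and 13.2 in these 10 cGy pools and ranged from 9.57 to 11.7 in control pools, and 13 of 13 rose with a median of 3.36. Without pools 1 and 3, 0 of 13 B cell markers were called (median -0.15) and 5 of 13 granulocyte markers rose (median 2.88). The part of these cell types in the differences of Bcl2, Mcl1 and Bad was not tested. Over 23 pools Bcl2 and the B cell mean had a Pearson correlation of 0.86 and a Spearman correlation of 0.49, and the Pearson value was 0.50 over 21 pools without DBA/2J 10 cGy pools 1 and 3. The strength of the relation over 23 pools rests on those pools, and within C57BL/6J the Pearson value was 0.44 over 12 pools. With the macrophage and T cell means Bcl2 had correlations of 0.84 and 0.78 over the 23 pools. The named genes closest to Bcl2 over 23 pools were Srpk3 (0.95), Fcmr and H2-Eb1 (0.94 each).

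**Figure D4:**
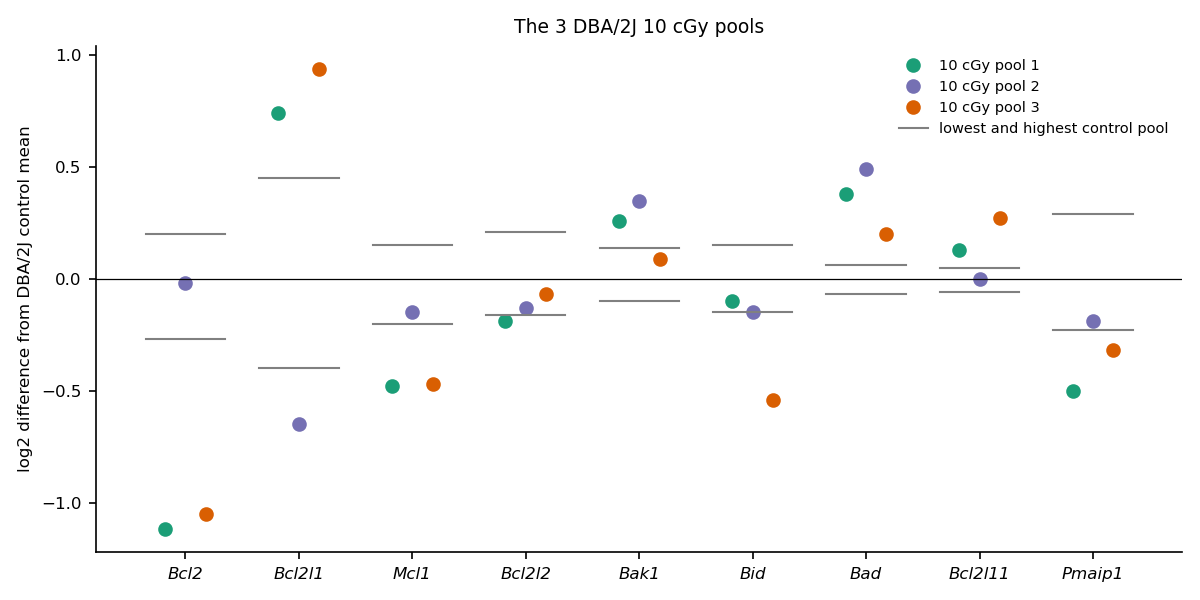
Log2 difference of each DBA/2J 10 cGy pool from the mean of the 4 DBA/2J control pools (y axis) for the 9 members (x axis); grey lines are the lowest and highest control pool. Pools 1 and 3 were -1.12 and -1.05 for Bcl2 and 0.74 and 0.94 for Bcl2l1, whereas pool 2 was -0.02 and -0.65. Pmaip1 was detected on 0 of the 7 arrays of these groups.

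Between 1 Gy and 10 cGy pools of DBA/2J, 7 of 9 members were called, where 36.1% of all features were called. Higher after 1 Gy were Bcl2 (0.93 ± 0.21), Mcl1 (0.56 ± 0.12), Bcl2l2 (0.33 ± 0.11) and Pmaip1 (1.43-fold on the means, with no 10 cGy array detected). Lower was Bcl2l1 (-1.60 ± 0.28), and Bad (-0.25 ± 0.10) and Bcl2l11 (-0.25 ± 0.09) were lower too, but these 2 were at 0.12 and 0.09 with arrays scaled to a common median. Without 10 cGy pools 1 and 3, 0 of 9 were called, and 210 of all 17176 features were, against 6202 with them. That left 1 pool of 10 cGy, assumed to vary like the other groups. The differences of the 1 Gy pools from it were -0.61 ± 0.28 for Bcl2l1, -0.39 ± 0.14 for Bad, -0.12 ± 0.13 for Bcl2l11, 0.22 ± 0.23 for Bcl2, 0.34 ± 0.17 for Mcl1 and 0.34 ± 0.16 for Bcl2l2. Pmaip1 was at 0.41 ± 0.18, with the probe not detected on the 10 cGy array.

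The second question was how the strains differed at each dose. In control pools 1 of 9 members passed the test, Pmaip1 (adjusted p = 0.00255), where 11.9% of all features were called. Its probe was detected on 0 of 4 arrays of either control group. The intensities, 6.70 to 7.22 in DBA/2J and 7.30 to 7.56 in C57BL/6J, were therefore not well above background, and no size is given for the difference. Bcl2l1, Bid and Bcl2l11 differed by 0.38 ± 0.25, 0.28 ± 0.14 and 0.18 ± 0.09 and did not pass (adjusted p 0.45, 0.284 and 0.243). The other 5 members differed by -0.13 to 0.11.

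After 1 Gy 1 of 9 members was called, again Pmaip1, where 13.2% of all features were called. It was 7.04 to 7.22 in DBA/2J and 7.71 to 8.21 in C57BL/6J, detected on 2 of 4 and 3 of 4 arrays, with a difference of -0.82 ± 0.11 (1.77-fold lower, adjusted p = 1.54e-05). Bcl2l1 was 7.57 to 8.10 in DBA/2J and 7.07 to 7.43 in C57BL/6J, so the groups did not overlap, but the difference of 0.58 ± 0.25 did not pass (adjusted p = 0.166). At this dose 21% of all features did not overlap between the strains. Erythroid markers were higher in DBA/2J for 14 of 16, with a median of 2.74.

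At 10 cGy 7 of 9 members were called, where 44.8% of all features were called. Without DBA/2J pools 1 and 3, 2 of 9 were, and 2144 of all 17176 features, against 7700 with them. Pmaip1 was detected on 0 of 3 DBA/2J arrays and 1 of 4 C57BL/6J arrays. On the means, against the dimmest detected values, it was 2.28-fold lower in DBA/2J (means 6.59 and 7.81, adjusted p = 1.33e-07 by limma). It was still lower without DBA/2J pools 1 and 3 (-1.08 ± 0.18). Bcl2l1 was 3.28-fold higher (1.71 ± 0.28, adjusted p = 4.59e-05), and 0.72 ± 0.28 without those pools (adjusted p = 0.105). Bcl2 (-0.83 ± 0.21), Mcl1 (-0.57 ± 0.12) and Bcl2l2 (-0.32 ± 0.11) were lower. Without those pools Bcl2 was -0.12 ± 0.23 (adjusted p = 0.805), Mcl1 -0.35 ± 0.17 (adjusted p = 0.217) and Bcl2l2 -0.32 ± 0.16 (adjusted p = 0.229). Bad (0.31 ± 0.10) and Bcl2l11 (0.27 ± 0.09) were higher, but lay at -0.01 and -0.04 with arrays scaled to a common median. Without those pools Bad was 0.45 ± 0.14 (adjusted p = 0.0391) and Bcl2l11 0.14 ± 0.13 (adjusted p = 0.554). Markers differed between the strains at this dose as well: 13 of 13 granulocyte markers (median 4.45) and 16 of 16 erythroid markers (median 2.91) were higher in DBA/2J, and 12 of 13 B cell markers were lower (median -1.14). Their part in the members' differences was not tested.

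The lower Pmaip1 intensity in irradiated DBA/2J pools passed the test under each pool left out, with adjusted p up to 3.56e-06 at 10 cGy and 0.000118 at 1 Gy. Over the 6 groups the probe was detected on 0 of 4 control, 0 of 3 10 cGy and 2 of 4 1 Gy arrays in DBA/2J and on 0 of 4, 1 of 4 and 3 of 4 in C57BL/6J, so its group means are not ranked. The means for control, 10 cGy and 1 Gy were 6.93, 6.59 and 7.14 in DBA/2J and 7.46, 7.81 and 7.96 in C57BL/6J. Within a strain, 10 cGy did not pass against control in either strain, nor did 1 Gy against control in DBA/2J. In C57BL/6J 1 Gy did not pass against 10 cGy. The lowest adjusted p of these was 0.0818. The member has 1 probe on the array, and whether a DBA/2J variant lies under it was not tested. Its closest genes over 23 pools were Saraf and 4930523C07Rik (0.96 each) and Abhd14b (0.95), whose correlations of deviations from the group means were 0.63, 0.71 and 0.44.

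**Figure D5:**
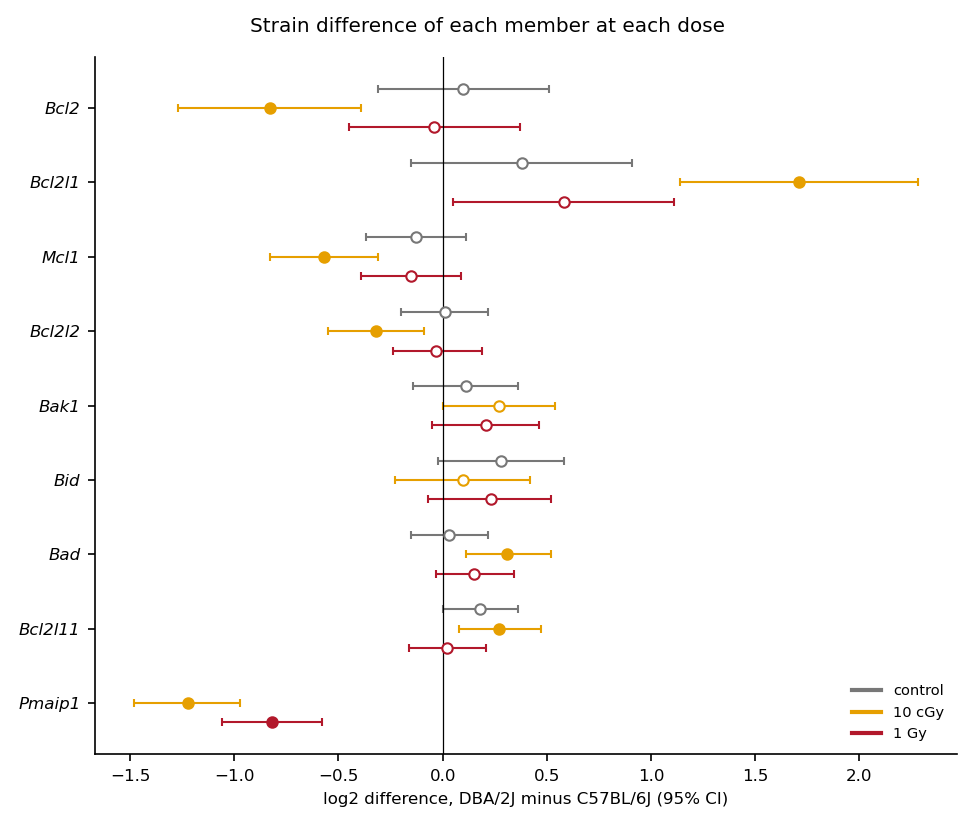
Log2 difference of DBA/2J minus C57BL/6J (x axis) with its 95% confidence interval for each member in control, 10 cGy and 1 Gy pools (colours); filled points were called at an adjusted p under 0.05. Pmaip1 lay at -0.82 at 1 Gy and, with no DBA/2J array detected, at -1.22 at 10 cGy, and its control difference, detected in neither strain, is left out. The other called differences shown were all at 10 cGy, and those of Bad and Bcl2l11 were at -0.01 and -0.04 under median scaling.

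The strain difference of the 10 cGy effect, DBA/2J minus C57BL/6J, was called for 3 of 9 members, where 21.8% of all features were called. It was 1.33 ± 0.38 for Bcl2l1 (adjusted p = 0.0162), -0.93 ± 0.29 for Bcl2 (adjusted p = 0.0263) and -0.69 ± 0.17 for Pmaip1 (adjusted p = 0.00716). Of the 4 groups behind the Pmaip1 value, 3 had no detected array and C57BL/6J 10 cGy had 1 of 4, so it rests on intensities not well above background. Without DBA/2J 10 cGy pools 1 and 3 the values were 0.33 ± 0.33, -0.22 ± 0.28 and -0.55 ± 0.21, and 0 of 9 were called, where 402 of all 17176 features were, against 3745 with them. The call of Bcl2l1 was lost without either of those pools alone, with inferred background (0.67 ± 0.24, adjusted p = 0.0633) and with only the arrays compared (1.33 ± 0.43, adjusted p = 0.0506).

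From the lowest to the highest group mean Bcl2l1 spanned 2.18 log2 units, against 0.32 to 0.97 for the 7 other members detected on all arrays. The DBA/2J 10 cGy group had the highest or lowest mean for every member but Bid. Bcl2l1 and Bcl2 ran against each other over the 23 pools (r = -0.77, and -0.80 for deviations from the group means), as did Bcl2l1 and Mcl1 (-0.82 and -0.67). Bcl2 and Mcl1 ran together (0.88 and 0.79). Bcl2l2 and Pmaip1 also ran together (0.68 and 0.76). The closest named genes to Mcl1 over the pools were Dennd2d (0.93), Krba1 (0.92) and Zscan20 (0.91), and those to Bcl2l2 were Zmiz1 (0.91), Stard8 (0.90) and Zeb1 (0.89). For Bad they were Spsb2 (0.83), Lss (0.81) and Uxt (0.80), and for Bcl2l11 Shmt2, Nt5c2 and Rex1bd (0.83 each). These are descriptions over pools that share arrays and cell makeup. The spans and correlations were taken only with DBA/2J 10 cGy pools 1 and 3 included. Against the control mean those pools lay at -1.12 and -1.05 for Bcl2 and at 0.74 and 0.94 for Bcl2l1. For Mcl1 they lay at -0.48 and -0.47. How far the spans and correlations rest on those pools was not tested.

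Other genes of the pathway were taken from lists. For every list, the share of all features called was 1.66% after 1 Gy and 10.2% after 10 cGy in DBA/2J. In C57BL/6J it was 8.08% and 3.23%. Of 14 other BCL2-related genes measured, after 1 Gy 1 fell in DBA/2J, and 2 rose and 1 fell in C57BL/6J. Bnip3l, which clears mitochondria from maturing red cells, fell in both strains, by 0.90 ± 0.19 in DBA/2J and 0.85 ± 0.19 in C57BL/6J (adjusted p 0.0182 and 0.00556). In C57BL/6J Bik, a BH3-only gene, rose by 0.45 ± 0.09 (adjusted p = 0.00385), and Bcl2a1a, a guardian of blood cells, rose by 0.77 ± 0.20 (adjusted p = 0.0223). Bcl2a1a has near-identical copies, so the copy is uncertain. After 10 cGy 3 of the 14 fell in DBA/2J, Bcl2a1a (-0.98 ± 0.22), Bcl2a1b (-0.91 ± 0.24) and the BH3-only gene Bmf (-0.46 ± 0.13), and 0 were called in C57BL/6J (4 at an unadjusted p under 0.05). Without DBA/2J pools 1 and 3, 0 of the 14 were called, with Bcl2a1a at -0.10, Bcl2a1b at 0.08 and Bmf at -0.14. Without the 2 C57BL/6J arrays that carried pancreas transcripts, Bnip3l still fell after 1 Gy (-0.80, adjusted p = 0.0411), and Bik (0.37, adjusted p = 0.054) and Bcl2a1a (0.76, adjusted p = 0.0819) did not pass.

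Of 20 measured regulators of the family, 3 fell after 1 Gy in C57BL/6J: Bag2 (-1.37 ± 0.29) and Bag1 (-0.35 ± 0.08), which are chaperone partners, and the survival kinase gene Pim1 (-0.72 ± 0.22). After 10 cGy in C57BL/6J Bag2 (-1.36 ± 0.29) and Bag1 (-0.31 ± 0.08) fell. In DBA/2J 0 of 20 were called after 1 Gy (3 at an unadjusted p under 0.05), and after 10 cGy Bag1 rose by 0.31 ± 0.09 and Ppp3ca, a calcineurin subunit gene, fell by 0.49 ± 0.11. Without the pancreas-bearing arrays Bag2 fell at both doses in C57BL/6J (-1.49 after 1 Gy and -1.48 after 10 cGy), while Bag1 (-0.33, adjusted p = 0.0667 after 1 Gy, and -0.30, adjusted p = 0.112 after 10 cGy) and Pim1 (-0.58, adjusted p = 0.213 after 1 Gy) did not pass. Without DBA/2J 10 cGy pools 1 and 3, 0 of 20 were called, with Bag1 at 0.06 and Ppp3ca at -0.37. The erythroid list medians in these 4 comparisons were -4.03 and -2.31 in C57BL/6J and -1.52 and 0.49 in DBA/2J, and their part in the Bag1, Bag2 and Pim1 differences was not tested.

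Of 17 measured apoptosome and caspase genes, 1 rose after 1 Gy in C57BL/6J, the inhibitor Birc2 (0.33 ± 0.09), where 8.08% of all features were called. After 1 Gy in DBA/2J and after 10 cGy in C57BL/6J 0 were called (3 and 1 at an unadjusted p under 0.05). After 10 cGy in DBA/2J the inflammatory caspase gene Casp1 fell by 0.79 ± 0.21, and it was at -0.17 ± 0.24 without pools 1 and 3. Birc2 was at 0.28 ± 0.11 and did not pass without the pancreas-bearing arrays (adjusted p = 0.166). Apaf1, the apoptosome scaffold, differed by -0.13 to 0.30 in the 4 dose comparisons with control and did not pass. Casp9, the caspase the apoptosome activates, was not called in any dose comparison, but it was lower in DBA/2J at every dose. On the group means it was 4.53-fold lower in controls and 5.39-fold lower at 10 cGy. At 1 Gy it differed by -2.37 ± 0.11 (adjusted p = 5.02e-13). It was detected on 0 of 4 control, 0 of 3 10 cGy and 3 of 4 1 Gy arrays in DBA/2J (means 6.76, 6.58 and 6.69) and on 2 of 4 arrays in each C57BL/6J group (means 8.94, 9.01 and 9.06), and a DBA/2J variant under the probe was not tested.

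Of 13 measured death receptor genes, 2 rose after 1 Gy in C57BL/6J, Fasl (0.68 ± 0.15), the ligand of Fas, and the receptor Tnfrsf25 (0.48 ± 0.14). After 10 cGy Tnfsf10, the TRAIL gene, rose 1.29-fold in C57BL/6J on the means (8.04 and 7.67, with no control array detected). In DBA/2J Tnfrsf25 (-0.66 ± 0.16) and Tnf (-0.63 ± 0.19) fell after 10 cGy. Fas, a p53 target, differed after 1 Gy by 0.36 ± 0.15 in DBA/2J and 0.46 ± 0.15 in C57BL/6J and did not pass (adjusted p 0.286 and 0.0664), and its probe was detected on 1 of 4 C57BL/6J 1 Gy arrays and on 0 of the other 12 arrays in these comparisons. Without the pancreas-bearing arrays Fasl (0.78, adjusted p = 0.00947) and Fas (0.61, adjusted p = 0.0365) passed after 1 Gy in C57BL/6J, and Tnfrsf25 (0.41, adjusted p = 0.193) and, after 10 cGy, Tnfsf10 (0.38, adjusted p = 0.0698) did not. Without DBA/2J 10 cGy pools 1 and 3, Tnfrsf25 was at -0.16 and Tnf at -0.01. NK cell markers, whose cells make Fasl, rose for 4 of 7 in C57BL/6J after 1 Gy (median 0.58), and their part in the Fasl difference was not tested.

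Of 25 measured p53 target genes, 3 rose in DBA/2J and 8 rose in C57BL/6J after 1 Gy, and Pmaip1 is counted among them. Cdkn1a, which halts the cell cycle, rose by 1.20 ± 0.18 in DBA/2J and 1.94 ± 0.18 in C57BL/6J (adjusted p 0.0026 and 7.65e-07). The list median was 0.23 in DBA/2J and 0.38 in C57BL/6J, against 0.018 and 0.037 over all features. After 10 cGy 3 of 25 rose and 1 fell in DBA/2J, and 0 were called in C57BL/6J (8 at an unadjusted p under 0.05). Without DBA/2J 10 cGy pools 1 and 3, 0 of 25 were called there, and without the pancreas-bearing arrays 10 of 25 rose after 1 Gy in C57BL/6J.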

How the data were processed

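Spleen RNA pools were measured on 23 Illumina 1-colour arrays of 34492 probes. The deposited non-normalized table gave an intensity (average signal) and a detection p-value per probe and array, per the file headers. The deposited value table held the authors' processed log2 values, with array medians of 8.088 to 8.1, and was used as an alternative; the submitters' processing notes name lumi, version not given. No header or label says how the detection p-values were computed.

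Intensities were corrected with normexp (offset 50), quantile-normalized and then log2-transformed with limma 3.58.1 in R 4.3.3. The array number, not read depth, limits precision. A probe was kept when its detection p was under 0.05 on at least 3 arrays (18423 probes), and the brightest kept probe represented a gene, which left 17176 features, 11348 of them with a symbol. The platform annotation gave 1 symbol for 20256 probes, several for 9 and none for 14227, and 20213 symbols were matched by gene number to RefSeq, with 0 changed. All 23 arrays entered 1 limma model of the 6 groups, from which 11 contrasts were taken, with two-sided Benjamini-Hochberg adjusted p-values over all features. For a probe detected on no array of a group, the fold was taken against the higher, per array, of its own value and the dimmest detected value. Such a fold is a bound on the means only, and the spread between pools is left out of it. The fit was tested on simulated data.

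All members were named. From each other apoptosis list the called genes were named, up to 4 in each direction, with Fas, Apaf1 and Casp9 whatever their values, and for each called member the 3 most correlated genes. The members and all lists were chosen with earlier results of these data known. Alternatives changed the background correction, scaling, filter, array weights, arrays fitted and pools left out, and leaving out DBA/2J 10 cGy pools 1 and 3 was chosen after seeing the data. The same was done for the gene lists, with the 2 arrays that carried pancreas transcripts left out likewise. Some items on the arrays are not reported here.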

Additional observations from a re-analysis of the deposited data

Results flagged for a closer look

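The effect of 10 cGy differed between the strains for Bcl2l1, by 1.33 (DBA/2J minus C57BL/6J, log2, adjusted p = 0.0162 by limma). For Bcl2 the difference was -0.93 (adjusted p = 0.0263) and for Pmaip1 -0.69 (adjusted p = 0.00716). For both genes every DBA/2J 10 cGy pool lay below and every C57BL/6J 10 cGy pool above the control mean of its strain. Bcl2 in DBA/2J pool 2 was at -0.02, and in C57BL/6J pools 3 and 4 at 0.08 and 0.05, within their control ranges. The share of all features with this arrangement was not counted. The Pmaip1 probe was detected on 0 arrays in 3 of these 4 groups and on 1 of 4 C57BL/6J 10 cGy arrays. Bcl2l2 showed the same opposite arrangement in every pool, with a difference of -0.33 that did not pass (adjusted p = 0.122). Without DBA/2J 10 cGy pools 1 and 3 the differences were 0.33, -0.22, -0.55 and -0.33, and none of the 4 passed.

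In 2 of 50 combinations of a member probe and a group of 4 pools, 1 pool lay far from the others. Bid in C57BL/6J 10 cGy pool 1 was 10.57, against 10.2 to 10.26 in the other 3 pools. Bcl2l11 in C57BL/6J control pool 4 was 8.14, against 7.8 to 7.85 in the other 3 pools. Chance alone gives such a pool in about 1 in 20 groups.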

How the results depend on the processing

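No paired analysis was possible because the labels number pools differently in each group. The count of members called after 1 Gy in C57BL/6J was 1 in place of 2 with background inferred from detection p and with probes detected on all 23 arrays. After 10 cGy in C57BL/6J it was 0 in place of 1 without the 2 pools that carried pancreas transcripts, with inferred background, with the authors' values and with no filter, and 2 by the exact permutation test (unadjusted, smallest possible p 0.0286). After 1 Gy in DBA/2J it was 0 in place of 1 with inferred background. After 10 cGy in DBA/2J it was 0 in place of 2 without pools 1 and 3 and with only the arrays compared, 1 with median scaling and by the exact test, and 5 with array weights. Between 1 Gy and 10 cGy in DBA/2J it was 0 in place of 7 without those pools and 4 with only the arrays compared. Between the strains it was 0 in place of 1 in controls and at 1 Gy with probes detected on all 23 arrays, a filter that removed Pmaip1. At 1 Gy it was 2 with array weights, with only the arrays compared and by the exact test. At 10 cGy it was 2 in place of 7 without DBA/2J pools 1 and 3 and 4 with only the arrays compared. The strain difference of the 10 cGy effect was called for 0 in place of 3 without those pools and for 5 with array weights. Median scaling turned the sign of Bad and Bcl2l11 in DBA/2J between 1 Gy and 10 cGy, to 0.12 and 0.09, and between the strains at 10 cGy, to -0.01 and -0.04. It moved the median of all features by 0.165 and -0.137 in these comparisons and by -0.116 in the strain difference of the 10 cGy effect, and the cause of the changed calls was not tested.

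Leaving out 1 pool at a time gave, of 9 members, 2 called after 1 Gy in C57BL/6J, 0 to 1 after 10 cGy in C57BL/6J, 0 to 1 after 1 Gy in DBA/2J and 0 to 5 after 10 cGy in DBA/2J. It gave 0 between 1 Gy and 10 cGy in C57BL/6J, 4 to 6 in DBA/2J, 1 between the strains in controls, 5 to 7 at 10 cGy, 1 at 1 Gy, 0 for the strain difference of the 1 Gy effect and 1 to 4 for that of 10 cGy. Without DBA/2J 10 cGy pool 2, Bcl2l1 was called higher after 10 cGy (0.84, adjusted p = 0.00501).

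Over all features the counts called were always highest under array weights. They ranged widely under settings that left out no pool of the groups compared. They were 990 to 2568 around 1387 after 1 Gy in C57BL/6J, 297 to 1289 around 555 after 10 cGy, 136 to 1119 around 285 after 1 Gy in DBA/2J and 17 to 6598 around 1759 after 10 cGy. They were 8 to 72 around 32 for 1 Gy against 10 cGy in C57BL/6J and 3228 to 8287 around 6202 in DBA/2J. Between the strains they were 1132 to 2749 around 2050 in controls, 5185 to 8912 around 7700 at 10 cGy and 1257 to 3824 around 2273 at 1 Gy, and for the strain differences 27 to 263 around 64 at 1 Gy and 2394 to 6778 around 3745 at 10 cGy. With pools left out they were 864 to 1315 after 1 Gy in C57BL/6J, 268 (without control pool 2) to 613 after 10 cGy, 34 (without control pool 1) to 261 after 1 Gy in DBA/2J, and 200 (without pools 1 and 3) to 5346 (without pool 2) after 10 cGy. For 1 Gy against 10 cGy they were 20 to 45 in C57BL/6J and 210 to 7741 in DBA/2J, between the strains 1679 to 1996 in controls, 2144 to 8686 at 10 cGy and 1853 to 2048 at 1 Gy, and for the strain differences 22 (without DBA/2J 1 Gy pool 3) to 105 at 1 Gy and 402 to 6076 at 10 cGy. With 3 or 4 pools a group, differences within the intervals given were not detectable, and Pmaip1 lay near background in most groups.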
